A study of Mus musculus with 3 samples.

Results

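The amino acid and neurotransmitter transporters of the solute carrier families SLC1, SLC3, SLC6, SLC7, SLC36, SLC38 and SLC43 were described in the choroid plexus epithelium (CPE), the secretory cell layer that lines the choroid plexus in the brain ventricles. Members were taken by gene name and were chosen with earlier results of these data known. They were all non-control probes whose gene name was Slc1a, Slc3a, Slc6a, Slc7a, Slc36a, Slc38a or Slc43a followed by a number. This gave 95 of 41174 probes, for 55 of 27845 gene names, and 54 of these names, with 94 probes, are described below. Healthy adult C57BL/6 mice aged 18 to 21 weeks gave the CPE, which was cut by laser from the lateral ventricles in frozen brain sections, and its RNA was amplified before labelling. The 3 mice formed the only group, with 1 Agilent array and 1 slide for each mouse. On every array the CPE carried the red dye Cy5, and RNA of the eye's retinal pigment epithelium and choroid (RPE/choroid), also from C57BL/6 mice, served as the common reference and carried the green dye Cy3. The dyes were not swapped, so a preference of a probe for a dye is part of every ratio below, and the reference was 1 RNA, whose own spread between animals is not part of any error.

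These carriers move amino acids and transmitters across cell membranes. The CPE makes cerebrospinal fluid and, with the blood-brain barrier, keeps most of its amino acids below their plasma level, and it also clears transmitters from the fluid. SLC7 light chains work as exchangers once joined to a heavy chain of SLC3, SLC38 carriers take up glutamine and other neutral amino acids together with sodium, and SLC1 carriers take up glutamate or exchange small neutral amino acids. The SLC6 family holds the sodium-coupled and chloride-coupled carriers for GABA, glycine, taurine, creatine and the monoamines. Slc36a1 and Slc36a2 of SLC36 are carriers coupled to protons, and Slc43a1 and Slc43a2 of SLC43 let large neutral amino acids pass down their gradient.

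Transcripts of the glutamine carrier Slc38a3 and of the small neutral amino acid exchanger Slc7a10 were higher in the CPE than in the RPE/choroid and among the brightest probes of the array, whereas the taurine carrier Slc6a6, the GABA and taurine carrier Slc6a13, the glycine carrier Slc6a9 and the glutamate carrier Slc1a1 were lower. The ratio of CPE over reference, on the log2 scale, was tested for the 39 members whose brightest probe stood well above background in 1 channel or both on each of the 3 arrays. Counting a member as called when its adjusted p was below 0.05 (limma, Benjamini-Hochberg adjustment over 25840 tested probes) and its signal differed 2-fold or more, 3 members were higher in the CPE and 6 were lower. These were Slc7a10, Slc38a3 and Slc7a4 on the higher side, and Slc6a6, Slc1a1, Slc6a13, Slc6a9, Slc6a14 and Slc43a2 on the lower side. All 9 had the same sign in all 3 mice. Of 17657 gene names tested at their brightest probe, 19.3% passed the threshold, 8.13% higher and 11.2% lower, and the members' 9 of 39 is to be read against that share. Over all probes, 3 of the 60 tested member probes were higher and 12 lower, where 17.3% of all tested probes passed, 7.09% higher and 10.2% lower. The median log2 ratio was -0.21 over the 39 members, of which 25 lay below 0, and -0.042 over all gene names. Of the 39 members, 12 entered the test through the reference alone, since they were not well above background in the CPE of every mouse, and a member that is dim in the CPE could enter in no other way. Slc43a2 was the one of these past the threshold. Of the other 27, 3 were higher and 5 lower. When only probes above background in both channels were tested, 20.3% of all probes passed the threshold, and 44.3% of those were higher.

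The share of calls on the higher side depended on how the 2 dyes were set level. It was 33.3% of the called members and 41.1% of all called probes after loess, and 45.5% and 67.0% after centring each array on its median. Median centring also moved the median log2 ratio of all tested probes from -0.041 to 0.092. It left all 9 calls among the members in place and added Slc6a8 and Slc6a17 as higher. Sizes moved by more than 1.5 times for several bright members: Slc7a10 became 9.13-fold and Slc38a3 7.25-fold higher, and Slc6a6 became 15.2-fold, Slc1a1 6.35-fold and Slc6a9 4.28-fold lower.

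The sequences around the transcription starts of 4 called members are shown. Slc7a10 is the one higher member with a window, Slc1a1 is the lower member with a window that differed most, and Slc6a13 and Slc6a14 are the called members whose windows hold a motif match. RefSeq promoter windows on GRCm38.p6 were found for 36 of the 54 members and for 6 of the 9 called ones, and each covers 250 bases before and 50 bases after a start. The windows read 5′ to 3′ on the gene's strand, and capitals mark matches on either strand to TAATCC, the core bound by the homeobox factors Crx and Otx2, or to CATGTG, an E-box bound by Mitf. The window of Slc7a10 (chr7:35186135-35186434, plus strand) has no capitals, nor has that of Slc1a1 (chr19:28834885-28835184, plus strand). The windows of Slc6a9 and Slc43a2, not shown, held no match either. That of Slc6a13 (chr6:121300038-121300337, plus strand) is 1 of 3 windows of the gene. That of Slc6a14 lies at chrX:21714650-21714949, plus strand.
Slc7a10: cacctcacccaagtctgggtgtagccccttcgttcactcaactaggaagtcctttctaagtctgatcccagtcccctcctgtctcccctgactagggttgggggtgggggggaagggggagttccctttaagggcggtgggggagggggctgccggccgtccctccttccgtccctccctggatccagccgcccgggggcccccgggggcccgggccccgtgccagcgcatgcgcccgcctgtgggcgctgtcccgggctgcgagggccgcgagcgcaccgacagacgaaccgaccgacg
Slc1a1: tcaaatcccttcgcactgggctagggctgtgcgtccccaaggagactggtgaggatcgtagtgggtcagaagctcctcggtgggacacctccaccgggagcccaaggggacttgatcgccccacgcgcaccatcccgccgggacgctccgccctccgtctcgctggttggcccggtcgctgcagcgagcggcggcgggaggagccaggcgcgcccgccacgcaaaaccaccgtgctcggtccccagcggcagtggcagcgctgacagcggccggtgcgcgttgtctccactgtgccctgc
Slc6a13: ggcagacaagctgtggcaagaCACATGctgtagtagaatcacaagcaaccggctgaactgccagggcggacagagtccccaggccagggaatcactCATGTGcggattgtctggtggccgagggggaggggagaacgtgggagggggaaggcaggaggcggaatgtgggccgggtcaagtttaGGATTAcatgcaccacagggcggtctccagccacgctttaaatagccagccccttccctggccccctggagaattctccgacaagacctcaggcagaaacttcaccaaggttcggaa
Slc6a14: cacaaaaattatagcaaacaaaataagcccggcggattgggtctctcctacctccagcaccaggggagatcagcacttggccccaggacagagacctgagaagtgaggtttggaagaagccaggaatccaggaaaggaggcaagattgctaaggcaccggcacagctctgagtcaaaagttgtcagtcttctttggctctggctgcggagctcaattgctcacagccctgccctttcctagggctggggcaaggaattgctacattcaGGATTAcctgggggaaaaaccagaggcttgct
The G and C content was 70.7% in the window of Slc7a10, 70.3% in that of Slc1a1, 59.0% in that of Slc6a13 and 52.7% in that of Slc6a14. TAATCC occurred in 3 of 57 windows of the members and in 7.06% of all 32851 windows. CATGTG occurred in 6 windows of the members and in 14.2% of all. The E-box CACGTG was found in 8 windows of the members against 7.15% of all, and TGATGNAA, a form of the amino acid response element bound by Atf4, in 4 against 3.97%. None of the CACGTG and TGATGNAA matches lay in a window of a called member. No match shown in capitals overlaps another, and a match is a description of the letters and not a binding site.

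The arrays differed in brightness. Probes well above background in the CPE channel were 58.5% of all in mouse 1, 46.0% in mouse 2 and 85.6% in mouse 3, and 53, 42 and 81 of the 94 member probes. The negative control spots of mouse 3 had a median red intensity of 357, against 77.5 and 78.1 in mice 1 and 2. By their brightest probe 27 of the 54 members were well above background in the CPE of all 3 mice, as were 48.5% of all gene names. Of the 31 member probes that were well above background in the CPE of 1 mouse alone, 30 were so in mouse 3. Low members therefore rest on mouse 3 in large part, and their order is not given weight here. The tissue label was checked against CPE markers. All 10 that are on the array, among them Ttr, Kl and Folr1, were above the 90th percentile of probes and 9 were higher than in the reference, with Otx2 at a log2 ratio of 0.14. The reference held other cells of the eye. The 8 photoreceptor markers were all lower in the CPE, with a summed signal from 6609 to 10633 over the CPE of the 3 mice and from 119020 to 137870 over the reference. Of 10 markers of RPE and melanocytes, 8 were lower (7339 to 12395 against 163323 to 184133), and Tyr was the one not well above background in the CPE of any mouse. The other 9, and all 8 photoreceptor markers, were well above background in the CPE of every mouse. The median percentile in the CPE was 77.2 over the 10 markers of RPE and melanocytes and 82.3 over those of photoreceptors.

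Rank in the CPE was taken, as in the study, as the percentile of the mean log2 red intensity among all probes. Expression was called high above the 90th percentile, moderate above the 50th, low above the 10th and very low under that. A class gives the place of a probe on the array and sets no gene above another in abundance, since probes differ in how well they bind. By their brightest probe 6 members were high, 24 moderate, 20 low and 4 very low. The high members were Slc7a10, Slc38a3, Slc3a2, Slc38a1, Slc6a8 and Slc7a8, and no other probe added a member. High probes were found for 12.7% of all gene names, against these 6 of 54, so the share of high members was near that of the array. In the reference 9 members had a high probe, where 12.5% of all gene names did. The median percentile of the members was 56.6 in the CPE and 65.7 in the reference, against 52.4 and 52.7 for all gene names.

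**Figure D1:**
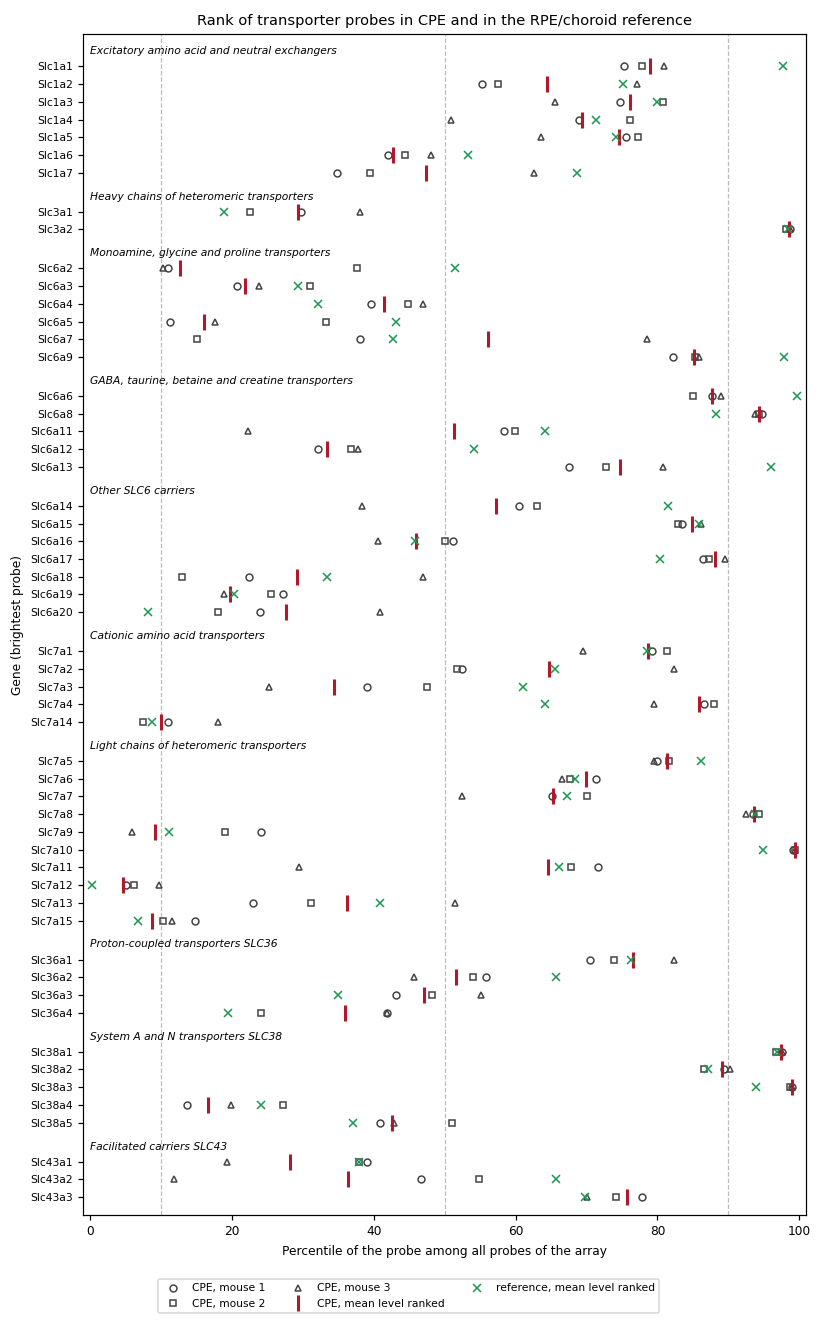
Percentile of the brightest probe of each of the 54 members among all probes of the array, grouped by role. Open symbols are the CPE of the 3 mice, the red bar is the rank of the mean CPE level, the green cross is the rank of the mean reference level, and dashed lines are the 10th, 50th and 90th percentiles that bound the classes. The 6 high members lie right of the 90th percentile in all 3 mice, whereas many low members differ widely between mice.

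The heteromeric exchangers held the member with the highest rank. Slc7a10 (Asc-1), an exchanger of small neutral amino acids that also carries D-serine and glycine, lay at percentile 99.2, 99.3 and 99.4 in the CPE of mice 1, 2 and 3. Its log2 ratio was 2.43, 2.32 and 2.37, so that the 3 mice lay closely together and all above 0. The mean was 2.37 ± 0.15 (SE, n = 3), a 5.18-fold higher signal in the CPE (limma adjusted p = 3.5e-05). Here and below SE is limma's moderated standard error, which draws on the spread of all tested probes. It can be wider or narrower than the spread of the 3 mice, whose SD was 0.056 for this probe. Its probe is at chr7:34909609-34909668 on mm8. In the reference the same probe ranked at percentile 94.9, so Slc7a10 was high in both tissues.

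Slc3a2 (4F2hc), the heavy chain with which Slc7a10 and most other light chains pair, lay at percentile 98.7, 98.2 and 98.7 in the CPE and at 98.5 in the reference. The log2 ratio was 0.30, -0.32 and 0.15, with mice on both sides of 0, and the mean was 0.04 ± 0.18 (SE, n = 3, limma adjusted p = 0.87). Under median centring it was 0.87, still not past the threshold. The other heavy chain, Slc3a1 (rBAT), ranked low at percentile 29.4 and was well above background in the CPE of mouse 3 alone. Its log2 ratio of 0.05 ± 0.16 was not past the threshold, and its sign turned under median centring, with the scanner's log ratio and without mouse 1.

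Slc7a8 (LAT2), a light chain for large and small neutral amino acids, was also high, at percentile 93.5, 94.4 and 92.4, and ranked at 93.8 in the reference. Its log2 ratio was -0.15 ± 0.15 (SE, n = 3, limma adjusted p = 0.47), which became 0.55 under median centring. Its relative Slc7a5 (LAT1) had a log2 ratio of -0.65, -0.68 and -0.67, close together in the 3 mice. The mean of -0.66 had an adjusted p of 0.010 by limma but was short of a 2-fold change, and under median centring it was -0.13 (limma adjusted p = 0.80). The other light chains tested were Slc7a6, Slc7a7 and Slc7a11 (xCT, the cystine and glutamate exchanger), with log2 ratios of 0.01, -0.30 and -0.35, none past the threshold. Slc7a9, Slc7a12, Slc7a13 and Slc7a15 were too dim to be tested. Slc7a12 ranked lowest by its mean level, at percentile 4.64, with 5.05, 6.09 and 9.66 in the 3 mice. It was not well above background in either channel on any array.

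Among the sodium-coupled glutamine carriers, Slc38a3 (SNAT3, a system N carrier) lay at percentile 99.0, 98.7 and 99.0 in the CPE and at 93.9 in the reference. The log2 ratio was 2.36, 1.80 and 2.05, highest in mouse 1 and far above 0 in each. Its mean of 2.07 ± 0.17 (SE, n = 3) was a 4.20-fold higher signal (limma adjusted p = 1.1e-04). The probe lies at chr9:107509595-107509654 on mm8.

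Slc38a1 (SNAT1), a system A carrier for glutamine, lay at percentile 97.6, 96.8 and 97.6 in the CPE and 96.9 in the reference. The log2 ratio was 0.43, -0.08 and 0.17, a mean of 0.17 ± 0.17 (SE, n = 3, limma adjusted p = 0.45). Under median centring it was 0.95, not past the threshold. Over the 5 probes of Slc38a1 the mean log2 ratio ran from -0.66 to 0.75, and none passed the threshold. Slc38a2 (SNAT2), another system A carrier, was just short of the high class at percentile 89.0, with a log2 ratio of 0.15. Slc38a4 and Slc38a5 were low, at percentiles 16.6 and 42.5, and both were too dim to be tested. Of the astrocyte markers, which name a cell type known to express Slc38a3, Slc7a10 and Slc1a2, 1 of 6 was higher in the CPE and 4 were lower. Their summed signal was 4674 to 7181 in the CPE against 7802 to 12133 in the reference. The 2 ependyma markers on the array, Foxj1 and Dynlrb2, were higher in the CPE, at a summed signal of 11448 to 16155 against 468 to 853. The part of astrocytes and of ependyma in the ratios of Slc7a10 and Slc38a3 was not tested.

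Slc7a4 was the only one of the 4 cationic carriers tested that passed the threshold. It belongs to that branch by sequence, and its substrate is not settled. The log2 ratio was 1.80, 1.79 and 1.22, with mouse 3 below the others. The mean was 1.60 ± 0.18 (SE, n = 3), or 3.04-fold (limma adjusted p = 4.5e-04), at percentile 85.9 in the CPE and 64.1 in the reference. It was not past the threshold when limma's treat was used to test against a 2-fold change, with an adjusted p of 0.082. The arginine and lysine carriers Slc7a1 (CAT1), Slc7a2 and Slc7a3 had log2 ratios of -0.20, 0.20 and -0.72. Slc7a14 was too dim to be tested.

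**Figure D2:**
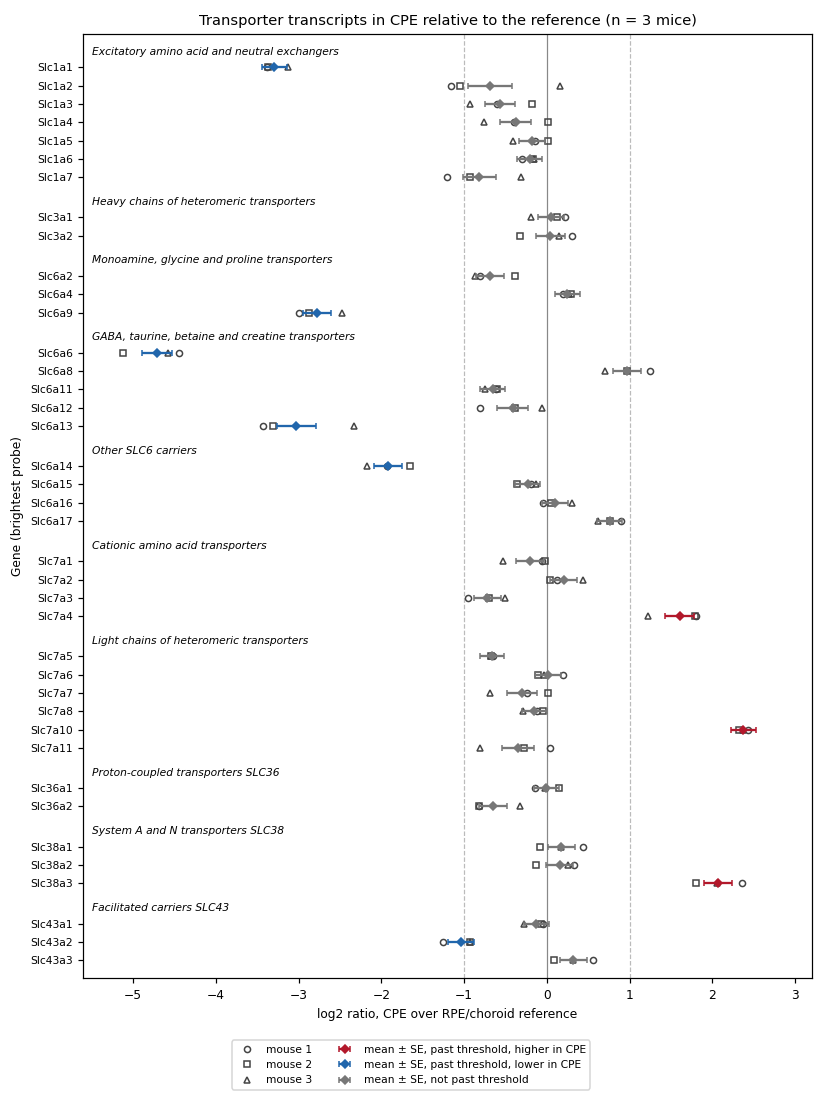
Log2 ratio of CPE over RPE/choroid reference for the 39 tested members at their brightest probe. Open symbols are the 3 mice, diamonds with bars are means ± limma's moderated SE, and dashed lines mark a 2-fold change. Colour marks the 3 members past the threshold on the higher side (red) and the 6 on the lower side (blue). Slc6a6 lies farthest from 0, at -4.71, and Slc7a10 is the highest, at 2.37.

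The carriers of taurine, GABA, betaine and creatine held the member farthest from the reference, and of 5 tested, 2 were lower and none was higher. Slc6a6 (TauT), the taurine transporter, had a log2 ratio of -4.45, -5.12 and -4.58, lowest in mouse 2. The mean was -4.71 ± 0.18 (SE, n = 3), a 26.2-fold lower signal in the CPE (limma adjusted p = 6.8e-06). It ranked at percentile 99.7 in the reference, among the brightest probes there, and still at 87.6 in the CPE, where it was well above background in every mouse. The photoreceptor markers were so too, at a median percentile of 82.3 in the CPE. Whether the CPE signal of Slc6a6 came from CPE cells was not tested. The probe is at chr6:91724130-91724189 on mm8.

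Slc6a13 (GAT2), a carrier of GABA and taurine, had a log2 ratio of -3.43, -3.31 and -2.33, with mouse 3 nearer to 0. The mean was -3.03 ± 0.23 (SE, n = 3), or 8.15-fold lower (limma adjusted p = 8.4e-05), and its rank was 74.7 in the CPE and 96.1 in the reference. The GABA carriers Slc6a11 (GAT3) and Slc6a12 (BGT1, which also carries betaine) had log2 ratios of -0.65 and -0.41 and did not pass the threshold.

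Slc6a8, the creatine transporter, differed from the rest of this group. Its log2 ratio was 1.24, 0.97 and 0.70 and lay above 0 in each mouse. The mean of 0.97 ± 0.17 (SE, n = 3) had an adjusted p of 0.0035 by limma and was just short of a 2-fold change. Without mouse 3 it was 1.11 and past the threshold (adjusted p = 0.0048), and it was also past it under median centring, at 1.62. Its rank was 94.7, 94.3 and 93.7 in the CPE against 88.2 in the reference.

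Of the glycine, proline and monoamine carriers, Slc6a9 (GlyT1), which clears glycine around synapses, was lower in the CPE. The log2 ratio was -2.99, -2.88 and -2.47, a mean of -2.78 ± 0.17 (SE, n = 3), or 6.87-fold (limma adjusted p = 3.1e-05). Its percentile was 85.1 in the CPE and 97.8 in the reference. Slc6a2, the noradrenaline transporter, was not well above background in the CPE of any mouse but was so in the reference on all arrays. Its fitted log2 ratio of -0.69 (limma adjusted p = 0.014), or 1.61-fold, did not pass the threshold. A floor at the lowest CPE signal that counted as above background left this value as it was. Slc6a4, the serotonin transporter, had a log2 ratio of 0.25 ± 0.15, not past the threshold. The dopamine transporter Slc6a3, the glycine transporter Slc6a5 and the brightest probe of the proline transporter Slc6a7 were too dim to be tested. For Slc6a7 a second probe was tested and had a log2 ratio of -0.04.

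Within the other SLC6 carriers, Slc6a14 (ATB0,+), a carrier of neutral and cationic amino acids, was lower. Its brightest probe had a log2 ratio of -1.93, -1.66 and -2.17, with a mean of -1.92 ± 0.17 (SE, n = 3, limma adjusted p = 1.4e-04). The second probe of this gene was not well above background in the CPE of any mouse. Its fitted log2 ratio was -3.86 (limma adjusted p = 3.4e-05). With the CPE held at or above the lowest signal that counted as above background on each array, it was 10.4-fold lower. The probe of Slc6a2, which did not count as above background in the CPE, lay above this floor too. The 10.4-fold is therefore not a lower bound. The sizes from the 2 probes differed while their direction did not. Slc6a17 (NTT4), a carrier of synaptic vesicles, had a log2 ratio of 0.76 ± 0.15 (SE, n = 3, limma adjusted p = 0.0068), which was 1.27 and past the threshold under median centring. Slc6a15 and Slc6a16 had log2 ratios of -0.23 and 0.10, not past the threshold. Slc6a18, Slc6a19 and Slc6a20 were too dim to be tested.

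Of the 7 carriers of SLC1, 1 passed the threshold. All 7 had a mean log2 ratio below 0 (6 of 7 under median centring), as had 9419 of 17657 gene names, and Slc1a6 and Slc1a7 entered the test through the reference alone. The called member was Slc1a1 (EAAC1), the glutamate and cysteine carrier of neurons and many epithelia. Its log2 ratio was -3.38, -3.36 and -3.13, close together in the 3 mice. The mean was -3.29 ± 0.15 (SE, n = 3), or 9.80-fold lower (limma adjusted p = 1.1e-05). Its percentile was 79.0 in the CPE and 97.7 in the reference, and its probe is at chr19:28979839-28979898 on mm8.

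The glial glutamate carriers Slc1a2 (GLT-1) and Slc1a3 (GLAST) had log2 ratios of -0.69 ± 0.26 and -0.57 ± 0.18. For Slc1a2 the mice disagreed, with -1.16 and -1.05 in mice 1 and 2 and 0.15 in mouse 3. Slc1a7 (EAAT5), a glutamate carrier known from photoreceptors and bipolar cells, stood at -1.20, -0.93 and -0.32. Without mouse 3 both Slc1a2 and Slc1a7 passed the threshold, at -1.11 and -1.07 (limma adjusted p = 0.0040 and 0.0054). The exchangers Slc1a4 (ASCT1) and Slc1a5 (ASCT2) had log2 ratios of -0.38 and -0.18. Slc1a6 (EAAT4), known from Purkinje cells, ranked lowest in this family, at percentile 42.6, with a log2 ratio of -0.21.

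Slc36a1 (PAT1), the proton-coupled carrier of lysosomes and epithelia, had the highest rank of SLC36, at percentile 76.5. Its log2 ratio of -0.01 ± 0.15 had no stable sign. Slc36a2 had a log2 ratio of -0.65 that did not pass the threshold. Slc36a3 and Slc36a4 were too dim to be tested, and Slc36a4 ranked lowest of the 4 at percentile 35.9.

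In SLC43, Slc43a2 (LAT4), a facilitated carrier of branched-chain amino acids and phenylalanine, had a log2 ratio of -1.26, -0.93 and -0.93 at its brightest probe. It was well above background in the CPE of 2 mice alone and entered the test through the reference. The mean of -1.04 ± 0.16 (SE, n = 3, limma adjusted p = 0.0020) was the smallest difference past the threshold among the members. It was no longer past it without mouse 1, at -0.93, without background correction, at -0.83, when tested against a 2-fold change with treat, or when both channels had to be above background. The brightest probe of Slc43a2 had no RefSeq match by accession. A second probe of the gene, which had one, was too dim to be tested. The log2 ratio of that second probe was -0.16, -0.28 and -0.006 in mice 1, 2 and 3. Slc43a3, which carries purine bases, and Slc43a1 (LAT3) had log2 ratios of 0.32 and -0.13, and their percentiles in the CPE were 75.7 and 28.2.

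The lower carriers stood beside lower markers of the eye and of neurons. Neuron markers were lower for 4 of 7, with a summed signal of 2941 to 4356 in the CPE and 13023 to 16508 in the reference, besides the photoreceptor, RPE and melanocyte markers above. Lower too were 3 of 6 macrophage markers (10699 to 12056 against 38492 to 46304), 5 of 6 stroma markers (25151 to 33462 against 84877 to 97176) and all 3 red blood cell markers (28780 to 49709 against 92782 to 104481). No endothelial marker of 6 passed the threshold (9595 to 16061 against 7043 to 8852), and of 4 oligodendrocyte markers tested 1 was higher (6499 to 9181 against 2762 to 3457 summed over all 5 on the array). The part of these cells in the ratios of the 6 lower carriers was not tested, and in such bulk samples fewer cells of a type and less RNA per cell cannot be told apart.

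**Figure D3:**
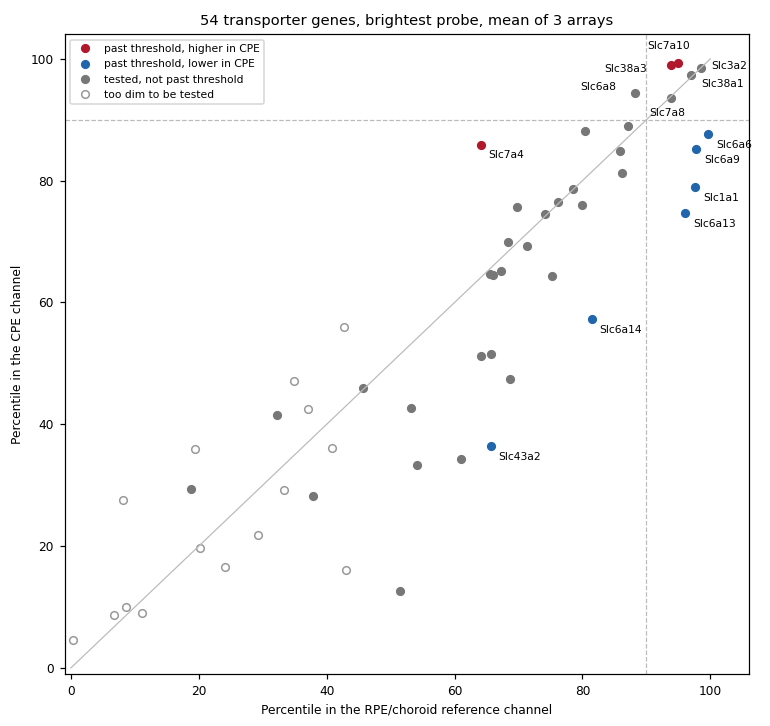
Percentile of the brightest probe of the 54 members in the CPE channel against that in the RPE/choroid reference channel, each for the mean of the 3 arrays. The solid line marks equal rank, dashed lines mark the 90th percentile, filled points were tested and coloured points passed the threshold. Slc6a6, Slc6a9, Slc1a1 and Slc6a13 were above the 90th percentile in the reference and between 74.7 and 87.6 in the CPE.

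Several members were read by more than 1 probe, and in 13 of them at least 2 probes were tested. No member had probes past the threshold in opposite directions. The 2 probes of Slc6a6 had mean log2 ratios of -4.71 and -3.22, those of Slc1a1 -3.29 and -4.12, and those of Slc6a13, which start 20 bases apart, -3.03 and -2.98. All 6 of these probes passed the threshold. Members whose brightest probe did not pass had a further probe that did in 2 cases. A probe of Slc38a2 that lies 10022 bases of genome upstream of its 3′-most probe had a log2 ratio of -1.40, -1.69 and -1.34, a mean of -1.48 ± 0.16 (SE, n = 3, limma adjusted p = 3.8e-04). A second probe of Slc1a2 had a mean log2 ratio of -1.19 ± 0.18 (SE, n = 3, limma adjusted p = 0.0020). The second probe of Slc3a2 lies 5994 bases upstream of the first and ranked at 70.7 rather than 98.6 in the CPE, with a log2 ratio of -0.45.

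The probes of Slc38a1 also differed in how mouse 2 stood to the others. At the 3′-most of the 4 probes above background for both dyes, mouse 2 lay 0.38 below the mean of mice 1 and 3 on the log2 scale, and at the probe 4734 bases upstream it lay 1.09 below. In mice 1, 2 and 3 the log2 ratio of that upstream probe was 0.61, -0.78 and 0.02. Over the 8 members with outermost probes at least 100 bases apart, mouse 2 stood lower at the 5′ probe in 4 and higher in the other 4, so the pattern of Slc38a1 was not shared by the members at large. Over the 40 member probes that were above background for both dyes on every array, the median SD of the log2 ratio between mice was 0.27, against 0.28 over 17945 probes of the whole array.

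**Figure D4:**
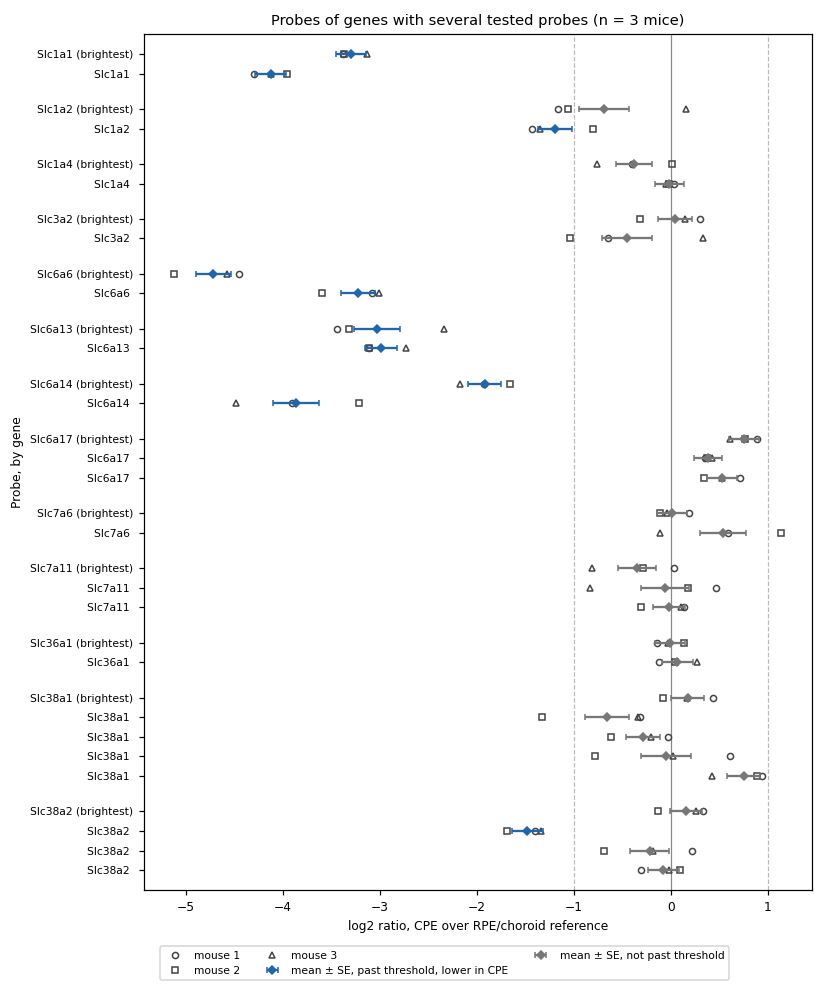
Log2 ratio of CPE over RPE/choroid reference for the 33 tested probes of the 13 members with at least 2 tested probes. Open symbols are the 3 mice, and diamonds with bars are means ± limma's moderated SE. Blue marks probes past the threshold on the lower side, and dashed lines mark a 2-fold change. All probes of Slc1a1, Slc6a6, Slc6a13 and Slc6a14 are lower in the CPE, whereas Slc38a2 and Slc1a2 each have 1 lower probe beside others that did not pass.

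Carriers of the same families under older names on the array were outside the members, and none was past the threshold. By the RefSeq symbol of their accession they were Slc38a7, Slc38a8, Slc38a9, Slc38a10, Slc38a11 and Slc6a20a. Slc38a10 and Slc6a20a, a proline and imino acid carrier, were high in the CPE, at percentiles 94.2 and 95.4. Their log2 ratios were 0.60 ± 0.15 and -0.53 ± 0.15. The array's Slc6a20 itself is the gene now named Slc6a20b in RefSeq.

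Other carriers of amino acids and transmitters were read from a list of 16, of which 15 were tested and 3 were higher and 4 lower, to be read against the 8.13% and 11.2% of all gene names. The higher ones were Slc18a1 (VMAT1), a vesicular monoamine carrier, and the mitochondrial carriers Slc25a13, for aspartate and glutamate, and Slc25a18, for glutamate, with log2 ratios of 1.46, 1.36 and 1.43. The lower ones were the vesicular carriers Slc17a6 (VGLUT2, -2.30), Slc32a1 (VGAT, -2.53) and Slc18a2 (VMAT2, -1.28), and Cltrn (collectrin, listed on the array as Tmem27, -3.42), a partner of apical amino acid carriers. Slc17a6, Slc32a1 and Slc18a2 mark transmitter neurons, and the values of the neuron markers are those given above.

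Of 41 tested enzymes of amino acid and transmitter metabolism, 4 were higher and 12 lower, where 8.13% and 11.2% of all gene names were. Those on the higher side were Maob, which oxidises monoamines, at a log2 ratio of 2.86, 2.64 and 2.67 in the 3 mice, Bcat2 (1.60), the mitochondrial branched-chain aminotransferase, Ass1 (1.37), which makes argininosuccinate, and Aldh18a1 (1.01), which starts proline synthesis. On the lower side were Bcat1 (-3.69), the cytosolic counterpart of Bcat2, Cdo1 (-3.12), which makes the precursor of taurine from cysteine, and Gad1 (-2.82), which makes GABA. Lower as well were Ddc (-2.29), Arg1 (-1.91), Glul (-1.71), which makes glutamine from glutamate and still ranked at percentile 99.5 in the CPE, Asns (-1.63), Oat (-1.54), Psat1 (-1.46), Gcsh (-1.17), Gclc (-1.05) and Gldc (-1.03). Of the 12 tested genes of the amino acid response, none was higher and 3 were lower, against the same shares of all gene names. The 3 were Chac1 (-3.56), Atf4 (-1.58) and Ddit3 (-1.07). The median log2 ratio was 0.30 for the other carriers, -0.18 for the enzymes and -0.25 for the amino acid response, beside -0.042 over all gene names.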

How the data were processed

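RNA of 3 mice was measured on 2-colour Agilent arrays, and the study's human samples were not analysed here. The authors used Agilent Feature Extraction 9.5.3.1 to make the deposited scanner tables, which hold the intensity of each spot, its flags and, per the file headers, a log10 ratio of the processed signals. The deposited table of the series holds log2 values made by the authors with Aquantile normalization between arrays (R 2.14.0 and limma, per the submitters' processing notes). Compared with the scanner intensities, that table held CPE levels, with a rank correlation of 0.998 on arrays 1 and 2 and 0.9997 on array 3, and medians of 6.99, 6.93 and 6.90. Whether a background was subtracted is not given in the sources used here.

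Values were computed with R 4.3.3 and limma 3.58.1. Spots of 1 probe were averaged after control spots and 84 flagged outliers had been removed, and 6 probes without a value on every array were not tested. For ranks, mean intensities on the log2 scale without background correction were normalized with Aquantile and averaged over the arrays. For ratios, intensities were background-corrected with normexp (offset 50) and normalized by loess within each array, and limma's moderated test of the mean against 0 was two-sided, with Benjamini-Hochberg adjustment. A gene was read at its brightest probe over both channels. Values with the CPE held at a floor were taken after loess and Aquantile, on the means of the arrays, and are open to dye bias. The number of arrays limits the precision. The fit was run on simulated ratios with independent normal noise. These held no dye bias and no error of the reference, so the run cannot speak to either.

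A member that the naming rule also takes in is not reported here. Members and gene lists were chosen with earlier results of these data known. Full values are given for members past the threshold, in the high class at any probe, above background in 1 channel alone, or highest or lowest in rank in their family. Others were named to complete a group of 5 or fewer or, after their values were seen, for a probe that differed or a value without mouse 3. Positions of probes are given on mm8, from the scanner files, and an annotation of mm8 was not used here, so exons are not given. Kcnj13, Slc4a5, Ccdc153, Tmem212 and Amt had no matching probe name, and Hbb-b1 and Hbb-bt shared 1 probe.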

Additional observations from a re-analysis of the deposited data

How the results depend on the processing

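The direction of all 9 called members held in the 11 alternatives, except that Slc43a2 gave no value when both channels had to be above background, and the calls of Slc7a10, Slc38a3, Slc6a6, Slc1a1, Slc6a13, Slc6a9 and Slc6a14 held in each. Counts of calls moved by more than 1.5 times in 3 settings. Median centring in place of loess gave 5 higher members and 3740 higher probes of the array (main 3 and 1833). The scanner's own log ratio gave 15 called members, 11 of them lower, and 6761 called probes, 2849 of them higher (main 9, 6, 4462 and 1833). It added Slc7a3, Slc1a7, Slc6a11, Slc6a2 and Slc36a2 as lower and Slc6a8 as higher, and put the log2 ratios of Slc7a4 at 2.20, Slc6a14 at -2.59 and Slc43a2 at -2.53. Testing against a 2-fold change with treat kept 7 members and gave 1414 called probes, 455 higher and 959 lower. Leaving out 1 mouse gave from 8 (without mouse 1) to 12 called members (without mouse 3). Some uncalled log2 ratios near 0 changed sign. Under median centring these were Slc36a1 at 0.30, Slc3a1 at -0.040, Slc7a8 at 0.55, Slc7a1 at 0.30, Slc1a5 at 0.26, Slc6a15 at 0.30 and Slc6a16 at -0.041. With the scanner's log ratio Slc36a1 was 0.064 and Slc3a1 -0.16. Leaving out 1 mouse, Slc36a1 ranged from -0.083 to 0.058, Slc3a1 from -0.037 to 0.17 and Slc3a2 from -0.087 to 0.22, Slc7a6 was -0.072 without mouse 1 and Slc6a16 was -0.00080 without mouse 3. Averaged over the probes of the gene, Slc36a1 was 0.029, Slc38a1 -0.013 and Slc3a2 -0.20. The cause of these changes was not tested. The 6 high members were the same in 9 alternatives and were 4 (Slc38a1, Slc38a3, Slc3a2 and Slc7a10) above the 95th percentile or when ranked among probes above background in the CPE.

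Scan day as a random block, an alternative chosen after seeing the data, could not be fitted because its correlation was undefined with 3 arrays, and mice 1 and 3, scanned on the same day, are the fit without mouse 2. A slide block was not possible with 1 array per slide. No paired analysis was possible because there was 1 group. The brighter negative control spots of mouse 3 limit what can be said of members near background.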
